A study of Mus musculus with 6 samples.

Results

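Wells of a single-cell chip in which cardiac transcripts outnumbered fibroblast transcripts were compared between a set group named NCM0 and immature cardiomyocytes (CMs, imCMs) that had been co-cultured with neonatal fibroblasts (NFNCM). The members were wells with 500 or more detected non-mitochondrial genes in which the unique molecular identifiers (UMIs) of the cardiac genes Tnnt2, Tnni3, Myh6, Actc1 and Tnnc1 outnumbered those of the fibroblast genes Col1a1, Col1a2, Col3a1, Dcn, Postn and Lum. This rule kept 752 of the 839 wells of both groups, out of 1419 wells on the chip and 2483 wells in the single-cell part of the series. NCM0 contributed 266 wells, 113 from NCM0_1 and 153 from NCM0_2. NFNCM contributed 486 wells, 165 from NFNCM1, 151 from NFNCM2 and 170 from NFNCM3. Cardiac markers made up 1% or more of the UMIs in 670 of the 752 wells. Among genes seen in 20 or more of the other 82 wells, Lyz2, Ctla2a and Apoe were most enriched in pooled UMIs over the 670. These genes are not cardiac and had a UMI in 25, 34 and 40 of the 82 wells. For the 82 wells, "CM" names the rule alone.

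The study grew C57BL/6 mouse imCMs from neonatal hearts with cardiac fibroblasts of neonatal or adult hearts and asked how the age of the fibroblasts bears on CM maturation. The ICELL8 chip holds nanowells that are imaged and meant to take 1 cell each. Per the methods, CMs and fibroblasts carried different cell-tracking dyes and were separated by flow sorting after co-culture, while the label of the library names repeated low-speed centrifugation of the suspension. NFNCM was read as CMs with neonatal fibroblasts, whereas neither the labels nor the methods define NCM0, so its culture condition and time are not known here. The group names come from the authors' report of the chip, in which all 5 sets belong to 1 library. No source says that the sets came from separate cultures or hearts, and p-values therefore measure the spread between well sets, which may be technical. The 2 NCM0 sets were numbers 1 and 2 in the order of dispensing onto the chip and the NFNCM sets numbers 3, 5 and 7, so dispensing order and group cannot be told apart.

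As background, CCL2 and CCL7 are chemokines that recruit monocytes through the receptor CCR2, and CXCL1 is a chemokine that recruits neutrophils through CXCR2. Fibroblasts, macrophages and endothelial cells are familiar sources of these proteins in the heart, and their genes are induced through NF-κB, a transcription factor held in the cytoplasm by IκB proteins until an inflammatory signal arrives. The p53 pathway, whose targets include the cell cycle inhibitor Cdkn1a and the cell death gene Pmaip1, responds to DNA damage and other stress.

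The kept wells carried cardiac transcripts in every set. UMI sums per set ranged from 2281346 to 5163893, and the median well held 12923 to 23396 UMIs and 2268 to 2865 genes. The 5 cardiac genes of the rule made up a median of 3.41% and 3.30% of a well's UMIs in the NCM0 sets and 3.83%, 4.07% and 3.77% in the NFNCM sets. All 15 cardiac markers that the rule did not use were detected in every set, with a summed level of 26372 to 33074 unscaled CPM, a unit that scales the UMIs of each set to the same total. All 6 fibroblast genes of the rule were also detected in every set, at a summed 284 to 824 unscaled CPM. The 5 negative control wells held at most 951 UMIs each, and in all 49 UMIs of the cardiac and 2 of the fibroblast rule genes. The mitochondrial share of UMIs was 20.91% and 20.98% in the NCM0 sets against 22.6%, 24.0% and 22.4% in the NFNCM sets, without overlap. The exact two-sided permutation test over the 5 sets gave p = 0.2 for it, the smallest p that 2 against 3 sets allow.

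The rule itself removed more wells from the co-culture. It kept 94.96% and 98.1% of the wells of the NCM0 sets (95% exact Clopper-Pearson intervals 89.3 to 98.1% and 94.5 to 99.6%) and 81.3%, 86.3% and 91.4% of the wells of the NFNCM sets (intervals 75.2 to 86.4%, 80.3 to 91.0% and 86.4 to 95.003%). The mean share was 96.5% ± 2.21 (SD, n = 2 sets) against 86.3% ± 5.06 (SD, n = 3 sets), a difference of -10.2 percentage points with an exact permutation p = 0.2. Of the wells with 500 or more genes, 3 and 3 NCM0 wells and 23, 18 and 6 NFNCM wells had at least as many fibroblast as cardiac UMIs. These wells were left out of the tests and are used below only as a reference.

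Sequence near the start of Cxcl1 is shown because that gene is 1 of the 3 strongest calls of the comparison. The RefSeq promoter of Cxcl1 (GRCm38.p6, chr5:90890995-90891244, plus strand, the 250 bases before the start of transcription in RefSeq) reads as follows, with capitals marking 2 overlapping κB matches, GGGAATTTCC on the plus strand and its neighbour 1 base on, read on the minus strand.
Cxcl1: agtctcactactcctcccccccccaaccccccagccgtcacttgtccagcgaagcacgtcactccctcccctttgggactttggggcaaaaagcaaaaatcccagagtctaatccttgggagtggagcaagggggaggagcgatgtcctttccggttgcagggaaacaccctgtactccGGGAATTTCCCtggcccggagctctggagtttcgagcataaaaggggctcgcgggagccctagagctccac
The matches lie 71 to 62 and 70 to 61 bases before the start. A κB match was found in 1275 of 32536 promoters of the table (3.92%), on either strand, and for 4.455% of its 27025 genes. Of the 12 chemokine ligand genes tested here that have a promoter in the table, 4 held one, which were Ccl20, Ccl9, Cxcl1 and Cxcl2. Ccl2, Ccl7 and Vcam1 have no entry in the table. The match describes the letters in this window and no binding was measured.

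Across 11912 genes tested on UMI sums per set, 10 genes (0.0839%) were called at an adjusted p under 0.05 with a log2 fold change beyond 0.58, by edgeR's quasi-likelihood test with Benjamini-Hochberg adjustment. Expression in NFNCM rose for 5 genes, Ccl2, Cxcl1, Ccl7, Hsd11b1 and Vcam1, and fell for 5 genes, Pmaip1, Dll4, Gm10800, Gm10801 and Gm26884 (0.042% in each direction). Unadjusted p was under 0.05 for 1078 genes (9.05%), 512 of them higher in NFNCM (4.3%) and 566 lower (4.75%). The sets of both groups did not overlap for 1454 genes that were higher in NFNCM (12.2%) and for 1510 genes that were lower (12.7%). Levels below are UMI counts in CPM scaled by TMM factors (sums per set) unless called unscaled, and fold changes are NFNCM over NCM0.

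**Figure D1:**
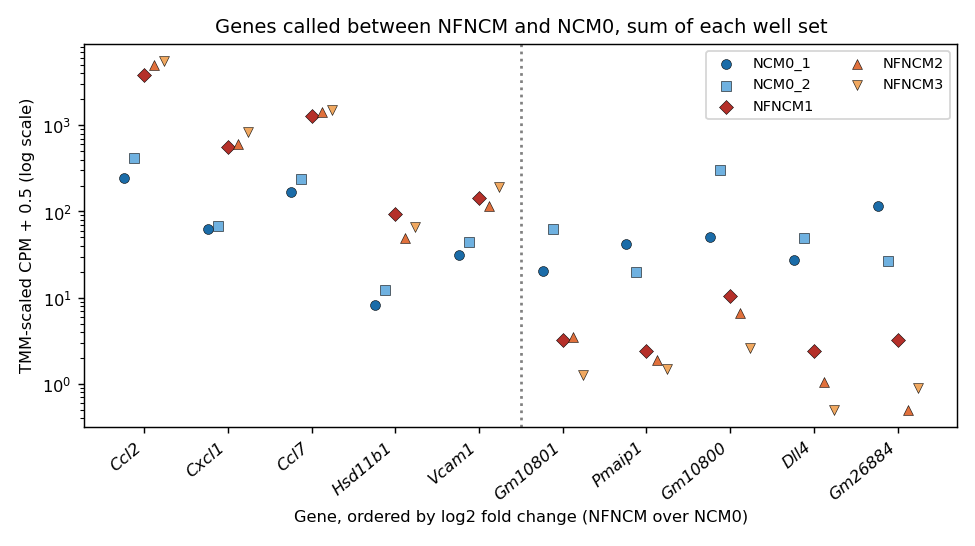
TMM-scaled CPM plus 0.5 (log axis) of the 10 called genes in the UMI sum of each well set, with blue symbols for the 2 NCM0 sets and red to orange symbols for the 3 NFNCM sets. Ccl2, Cxcl1, Ccl7, Hsd11b1 and Vcam1, left of the dotted line, were higher in every NFNCM set than in either NCM0 set, and the 5 genes right of it were lower in every NFNCM set.

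Among the called rises, transcripts of the monocyte chemokine Ccl2 (ENSMUSG00000035385, mm10 chr11:82035571-82037453, plus strand) had the largest log2 fold change. Ccl2 stood at 247 and 419 CPM in NCM0_1 and NCM0_2 and at 3875, 5042 and 5514 CPM in NFNCM1, NFNCM2 and NFNCM3. Every NFNCM set was far above both NCM0 sets, and its log2 fold change was 3.85 (SE 0.27, adjusted p = 0.00017 by edgeR, 2 against 3 sets). Ccl7 (ENSMUSG00000035373, chr11:82045712-82047525, plus strand), the neighbouring monocyte chemokine gene, stood at 167 and 236 CPM against 1291, 1432 and 1496 CPM. Again no sets overlapped, and the log2 fold change was 2.80 (SE 0.21, adjusted p = 0.00017 by edgeR). The neutrophil chemokine Cxcl1 (ENSMUSG00000029380, chr5:90891241-90893115, plus strand) stood at 62.5 and 67.0 CPM against 564, 608 and 830 CPM. Its log2 fold change was 3.36 (SE 0.23, adjusted p = 0.00017 by edgeR), with the highest level in NFNCM3 and nearly equal levels in both NCM0 sets. All 3 genes stayed called when any 1 of the 5 sets was left out, with log2 fold changes of 3.51 to 4.28 for Ccl2, 2.57 to 3.07 for Ccl7 and 3.17 to 3.46 for Cxcl1.

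Other chemokine ligands were not called. Of 34 ligand genes measured, 18 passed the filter on low counts, which was passed more easily by genes that are high in 1 group, and Ccl2, Ccl7 and Cxcl1 were the only calls, beside 0.042% of all genes called higher. Cxcl2, another neutrophil chemokine gene, stood at 1.8 and 9.31 CPM against 53.8, 45.9 and 17.6 CPM, with a log2 fold change of 2.68 and an adjusted p of 0.299 by edgeR. Cxcl16, a membrane-bound chemokine gene, had a log2 fold change of 1.22 (adjusted p = 0.375 by edgeR). Ccl9, Ccl3 and Ccl6, at means of 11.5, 10.5 and 2.86 CPM, had 4.37, 4.16 and 3.78 (adjusted p = 0.325, 0.420 and 0.362 by edgeR). The sets of Cxcl2, Cxcl16, Ccl9, Ccl3 and Ccl6 did not overlap and were higher in NFNCM, beside 12.2% of all genes. Those of Ccl17 and Cx3cl1 did not overlap and were lower, beside 12.7%. Cxcl12, the ligand of CXCR4, stood at 63.9 and 163 CPM against 99.0, 71.2 and 87.5 CPM, and its sets overlapped. These ligands were named after their values were seen.

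A gradient in Ccl2 ran across the kept wells of each set, from wells rich in cardiac markers to wells poor in them. In wells with 3% or more cardiac marker UMIs, Ccl2 stood at 94.7 and 218 CPM, without TMM scaling here and for all classes of wells, in NCM0_1 and NCM0_2 and at 276, 484 and 585 in the NFNCM sets. In wells with 1 to 3% it stood at 409 and 611 against 6517, 11618 and 12991 unscaled CPM. In the 82 kept wells under 1% it stood at 896 and 1374 against 11160, 30493 and 14622 unscaled CPM. In the wells that failed the rule it stood at 2574 and 2695 against 16020, 21746 and 30267 unscaled CPM. NFNCM sets were above NCM0 sets in each of these 4 classes, and within every set the level was lowest in the wells richest in cardiac markers.

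**Figure D2:**
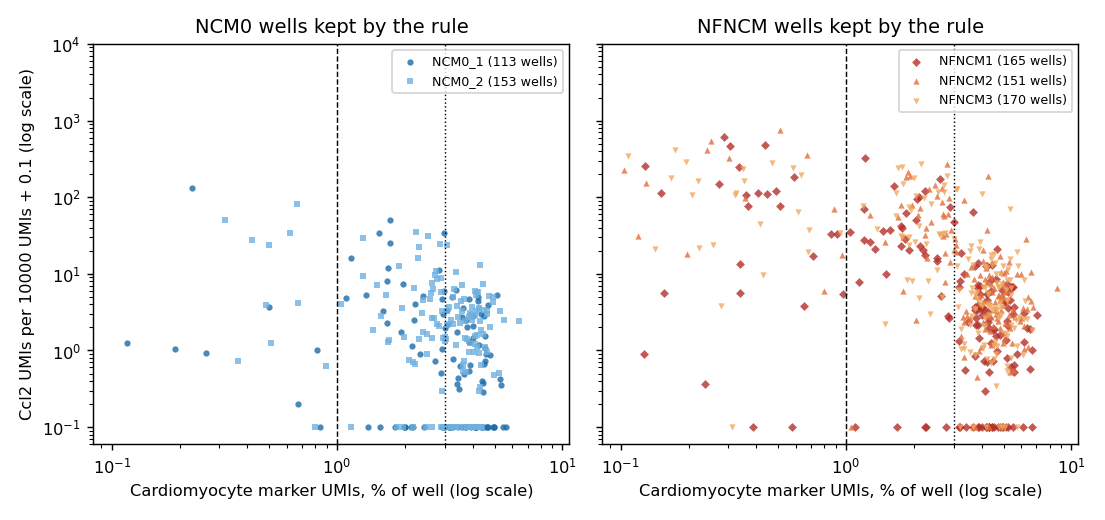
Ccl2 UMIs per 10000 UMIs plus 0.1 of each kept well (log axis) against the share of its UMIs from the 5 cardiac genes of the rule (percent, log axis), NCM0 on the left and NFNCM on the right, 1 point per well, with lines at 1% (dashed) and 3% (dotted). NFNCM wells left of the dotted line reach higher Ccl2 than NCM0 wells at the same marker share, and points at 0.1 are wells with no Ccl2 UMI.

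Most Ccl2 UMIs of the co-cultured sets came from wells with a smaller cardiac share. Wells with 3% or more cardiac marker UMIs numbered 102, 104 and 109 in the NFNCM sets and held 4.39%, 7.87% and 6.65% of their Ccl2 UMIs, whereas the 69 and 90 such NCM0 wells held 28.4% and 26.8%. Kept wells under 1% numbered 26, 13 and 24 in NFNCM and held 72.2%, 56.3% and 50.1% of the Ccl2 UMIs. These wells held 24.9%, 8.72% and 18.9% of all UMIs of the NFNCM sets, and 12.03% and 6.98% of those of the NCM0 sets, where they numbered 8 and 11. Lyz2, a macrophage lysozyme gene, stood at 2680 unscaled CPM in the wells under 1% against 47.1 in the wells of 1% or more, yet only 25 of the 82 wells had a Lyz2 UMI. Single wells held 83.5% of the Lyz2 UMIs of NCM0_1 and 74.3%, 81.9% and 82.5% of those of the NFNCM sets, and in NCM0_2 Lyz2 stood at 29.2 unscaled CPM in wells under 1% against 119 in the rest. Apoe, a lipid carrier gene that macrophages express strongly, stood at 3471 against 101 unscaled CPM and had a UMI in 40 of the 82 wells. All 11 macrophage markers were detected in the kept wells of every set. In wells under 1%, 10 and 4 of them had a UMI in NCM0_1 and NCM0_2. Their sums in wells under 1% were 5906 and 45.4 unscaled CPM in NCM0 and 4998, 9636 and 1603 in NFNCM. In wells of 1% or more the macrophage markers summed to 19.4 and 203 against 64.6, 50.5 and 31.5 unscaled CPM. In wells of 1 to 3% alone they summed to 63.9 and 397 against 230, 170 and 35.8. The 6 fibroblast genes of the rule summed to 1144 and 1996 against 1119, 1373 and 1105 unscaled CPM in wells under 1%. At least 1 of them had a UMI in 75 to 100% of those wells of each set. In wells of 1 to 3% these 6 genes summed to 511 and 1018 against 1554, 1447 and 2243, without overlap. The part of these other transcripts in the chemokine differences was not tested.

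The comparison was repeated on the 670 kept wells with 1% or more cardiac marker UMIs, a limit chosen after the wells were seen. Of 11357 genes, 2 were called (0.0176%), Ccl2 as higher and Dll4 as lower in NFNCM (0.00881% in each direction). An unadjusted p under 0.05 was found for 973 genes (8.57%), 467 of them higher (4.11%) and 506 lower (4.46%). Ccl2 had a log2 fold change of 3.28 (SE 0.39, adjusted p = 0.024 by edgeR), whereas Cxcl1 had 3.23 (adjusted p = 0.128) and Ccl7 2.08 (adjusted p = 0.250) and were no longer called. With 3% or more, a limit likewise chosen after the data were seen, Ccl2 had a log2 fold change of 1.65 (adjusted p = 0.112 by edgeR), Cxcl1 1.84 (adjusted p = 0.379) and Ccl7 1.02 (adjusted p = 0.526). In that class Ccl7 stood at 67.4 and 106 against 71.2, 131 and 279 unscaled CPM and Cxcl1 at 12.8 and 44.8 against 29.5, 112 and 143, so the sets overlapped for both, while for Ccl2 they did not. In wells where cardiac UMIs exceeded fibroblast UMIs by 20 times, the log2 fold changes were 2.17, 2.58 and 1.52 for Ccl2, Cxcl1 and Ccl7, with adjusted p of 0.081, 0.272 and 0.189 by edgeR. With all wells weighted equally, differences in the mean log2 level per well were 1.82 for Ccl2 (adjusted p = 0.00084 by limma), 0.97 for Cxcl1 (adjusted p = 0.015) and 0.68 for Ccl7, which was not called (adjusted p = 0.211). These values are on another scale than the folds of summed UMIs.

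**Figure D3:**
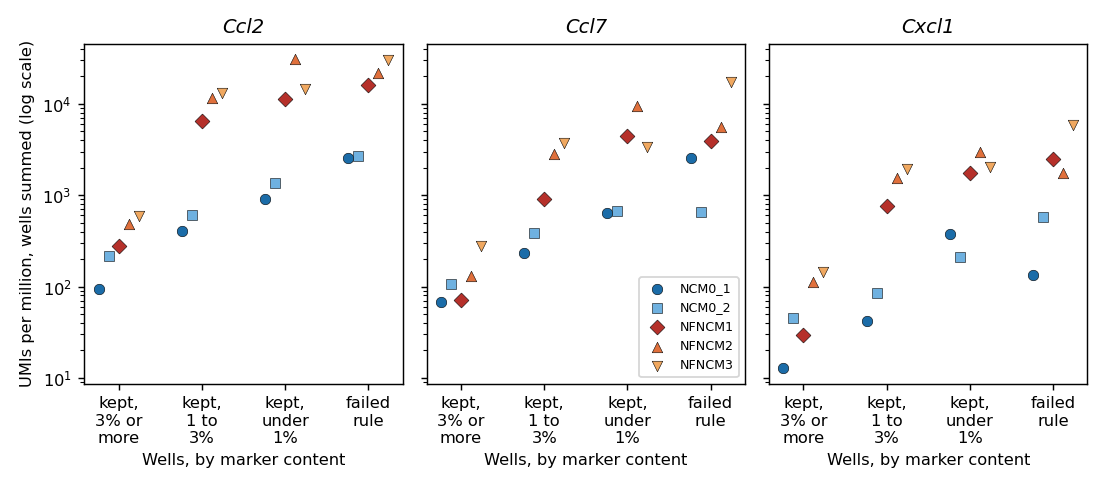
Unscaled CPM (log axis) of Ccl2, Ccl7 and Cxcl1 in summed wells of each set, split by the share of cardiac marker UMIs into 3 classes of kept wells and the wells that failed the rule. Levels were lowest in wells of 3% or more, where Ccl7 and Cxcl1 overlapped between NCM0 and NFNCM, and the NFNCM sets lay above the NCM0 sets for all 3 genes in wells of 1 to 3% and under 1%.

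Ccl2 was detected in most wells of both groups. A Ccl2 UMI was present in 66.4% and 81.0% of the NCM0 wells and in 81.2%, 96.7% and 95.3% of the NFNCM wells. After thinning each well to 5000 UMIs, which left out 154 shallower wells, the shares were 48.8% and 57.6% against 60.0%, 86.0% and 82.4%. The 5 negative control wells held 1 Ccl2 UMI and none of Ccl7 or Cxcl1, with a median of 145 UMIs a well. No set had more than 24.1% of its Ccl2 UMIs in 1 well except NCM0_1, where a well of 17106 UMIs with 39 cardiac and 31 fibroblast UMIs held 41.7%. The UMIs were still concentrated, since the top 5 wells of each set held 58.1% and 41.3% of Ccl2 UMIs in NCM0 against 63.3%, 61.4% and 49.7% in NFNCM. For Ccl7 the top 5 wells held 70.4% and 40.1% against 77.7%, 66.3% and 58.2%. For Cxcl1 they held 82.7% and 46.7% against 60.7%, 53.6% and 42.9%.

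Ccl2 was also set against the fibroblast collagen gene Col1a1 within each set. In wells of 1% or more, there were 2.21 and 1.38 Ccl2 UMIs per Col1a1 UMI in NCM0_1 and NCM0_2 and 10.2, 22.8 and 19.5 in the NFNCM sets. In the wells that failed the rule the ratio was 0.905 and 0.624 against 11.1, 14.7 and 25.4. The rule limits Col1a1 in kept wells and selects for it in failed wells, where Col1a1 stood at 2843 and 4320 unscaled CPM in NCM0 and at 1441, 1476 and 1191 in NFNCM, so the ratios of failed wells also carry this difference in Col1a1. Among wells of 1% or more, Col1a1 stood at 68.3 and 274 against 140, 99.0 and 175 unscaled CPM, with overlap. These wells join the classes of 1 to 3% and of 3% or more, and the ratios were not split by class. In wells of 1 to 3%, the 12 fibroblast markers not used by the rule summed to 731 and 1361 against 2232, 1629 and 2306, without overlap. In wells of 3% or more, the 6 fibroblast genes of the rule summed to 90.5 and 542 against 63.1, 69.2 and 80.0, lower in every NFNCM set. In all kept wells Col1a1 stood at 136 and 305 CPM against 216, 144 and 212 CPM, with overlapping sets (log2 fold change -0.22, adjusted p = 0.903 by edgeR). Whether chemokine UMIs in cardiac wells came from the cell in the well or from RNA of other cells was not tested.

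The calls of the other rises, Vcam1 and Hsd11b1, were lost on leaving out any 1 of several sets, although both genes stayed higher in NFNCM. Vcam1 (ENSMUSG00000027962, chr3:116109949-116129688, minus strand), an adhesion molecule that binds leukocyte integrins, stood at 31.04 and 43.99 CPM against 142, 114 and 193 CPM. The sets did not overlap, with a log2 fold change of 1.98 (SE 0.29, adjusted p = 0.039 by edgeR). The call was lost without NCM0_1, NCM0_2, NFNCM1 or NFNCM3 (adjusted p = 0.207 and 0.117 by edgeR for the last 2). The log2 fold change of Vcam1 stayed at 1.76 to 2.27, and in wells of 1% or more it was 2.07 (adjusted p = 0.146). Hsd11b1 (ENSMUSG00000016194, chr1:193221634-193264075, minus strand), which regenerates active glucocorticoid from its inert form, stood at 7.65 and 11.6 CPM against 91.9, 48.7 and 66.2 CPM. Its log2 fold change was 2.80 (SE 0.38, adjusted p = 0.036 by edgeR). This call was lost without NCM0_1, NCM0_2, NFNCM1 or NFNCM3 (adjusted p = 0.207 and 0.093 by edgeR for the last 2). Wells under 1% held 91.0%, 54.8% and 25.2% of the Hsd11b1 UMIs of the NFNCM sets, and a single NFNCM1 well held 39.0%. In wells of 1% or more its log2 fold change was 1.90 (adjusted p = 0.408), and in wells of 3% or more it was -0.11 (adjusted p = 0.991).

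The 5 falls rested on few wells. Pmaip1 (ENSMUSG00000024521), a p53 target that promotes cell death, was detected in 7 and 16 NCM0 wells and in 2, 2 and 2 NFNCM wells. Its levels were 41.8 and 19.5 CPM in NCM0 and 1.93, 1.37 and 0.967 CPM in NFNCM, so that the log2 fold change was -4.41 (SE 0.58, adjusted p = 0.036 by edgeR). A single NCM0_1 well of 84851 UMIs, with 162 cardiac and 131 fibroblast UMIs, held 76.3% of the Pmaip1 UMIs of that set and 64.0% of its Cxcl1 UMIs. Without NCM0_1 the log2 fold change of Pmaip1 was -3.77 (adjusted p = 0.172), and without NFNCM1, NFNCM2 or NFNCM3 the adjusted p was 0.156, 0.118 and 0.101. Without the top well of each set for each gene, an alternative added after the wells were seen, Pmaip1 kept its call (log2 fold change -5.47, adjusted p = 0.019 by edgeR), and in wells of 1% or more it lost it (-3.67, adjusted p = 0.179).

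Dll4 (ENSMUSG00000027314, chr2:119325784-119335962, plus strand), a Notch ligand typical of endothelial tips and arteries, was detected in 7 and 5 NCM0 wells and in 4, 2 and 0 NFNCM wells. It stood at 27.0 and 49.3 CPM against 1.93, 0.55 and 0 CPM (log2 fold change -5.60, SE 0.81, adjusted p = 0.039 by edgeR). Single wells held 60.0% of the Dll4 UMIs of NCM0_1 and 93.6% of those of NCM0_2, the latter a well of 195092 UMIs with 4654 cardiac UMIs. The Dll4 call was lost without NCM0_2, NFNCM1, NFNCM2 or NFNCM3 (adjusted p = 0.152, 0.080, 0.162 and 0.053), and without the top wells (log2 fold change -3.98, adjusted p = 0.283). Of its 31-base words, 4.80% are shared with the gene model Gm14207.

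The other falls were gene models without a known role, Gm10800 (ENSMUSG00000075014, chr2:98666547-98667301, minus strand), Gm10801 (ENSMUSG00000075015, chr2:98662237-98664083, plus strand) and the lincRNA Gm26884 (ENSMUSG00000097128, chr15:79689140-79692385, minus strand). Gm10800 stood at 49.5 and 299 CPM against 9.93, 6.05 and 2.13 CPM, Gm10801 at 19.8 and 62.0 against 2.76, 3.02 and 0.774 CPM, and Gm26884 at 116 and 26.4 against 2.76, 0 and 0.387 CPM. In NCM0_1 the same well of 99118 UMIs held 87.3% of the Gm10800, 86.4% of the Gm10801 and 99.6% of the Gm26884 UMIs, and in NCM0_2 single wells held 96.2%, 92.8% and 97.6%. Without the top wells the log2 fold changes were -2.11, -1.77 and -1.68 in the same order, with adjusted p of 0.335, 0.623 and 0.829 by edgeR, so no call remained. The call of Gm10800 was lost without NCM0_2 (log2 fold change -3.05, adjusted p = 0.152) and without NFNCM1, NFNCM2 or NFNCM3 (adjusted p = 0.207, 0.162 and 0.117). The call of Gm10801 was lost without the same 4 sets (adjusted p = 0.279, 0.254, 0.155 and 0.117), and that of Gm26884 without NCM0_1, NFNCM1, NFNCM2 or NFNCM3 (adjusted p = 0.234, 0.080, 0.118 and 0.148). Gm10800 and Gm10801 share 42.0% and 36.2% of their 31-base words with other gene models, each other included, so their counts are uncertain.

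**Figure D4:**
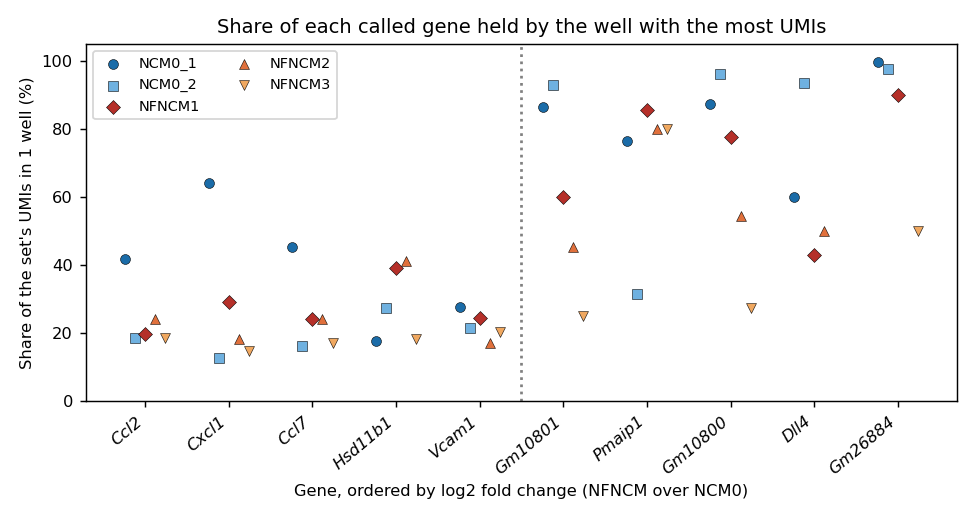
Percent of each set's UMIs of the 10 called genes that came from the single well with the most, in the same gene order as the plot of called genes. For Gm10800, Gm10801 and Gm26884 both NCM0 sets lie above 80%, whereas for Vcam1 no set exceeds 30%. A gene without a UMI in a set has no point.

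Genes of the p53 list had the lowest median of the 23 lists, with 1 of 20 members called (Pmaip1, lower). The median log2 fold change was -0.66 beside 0.01 over all tested genes, and the sets did not overlap for 9 members, all lower in NFNCM, beside 12.7% of all genes. Unadjusted p was under 0.05 for 8 members, all lower, beside 4.75% of all genes. Cdkn1a, which encodes the cell cycle inhibitor p21, stood at 1112 and 905 CPM against 518, 390 and 504 CPM. These levels did not overlap, yet the log2 fold change of -1.10 (SE 0.18) had an adjusted p of 0.071 by edgeR and was not called. Ccng1, encoding cyclin G1, stood at 224 and 349 CPM against 127, 166 and 165 CPM, with a log2 fold change of -0.91 (adjusted p = 0.314). Perp, a membrane protein gene induced by p53, had a log2 fold change of -0.47 (adjusted p = 0.535). Mdm2, the ubiquitin ligase that degrades p53, was added after its values were seen, at 220 and 91.2 CPM against 43.9, 49.2 and 51.1 CPM (log2 fold change -1.68, adjusted p = 0.151).

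The p53 list kept a negative median among wells richer in cardiac markers. In wells of 1% or more the median of the list was -0.42 beside 0.00 over all genes, with 18 of 20 members below 0 and 6 non-overlapping, all lower, beside 12.6% of all genes. Cdkn1a had a log2 fold change of -0.90 there and of -1.03 in wells of 3% or more (adjusted p = 0.112 by edgeR), where it stood at 512 and 782 against 252, 290 and 327 unscaled CPM. Mdm2 had -0.91 and -1.06 in those classes. Trp53 itself stood at 12.6 and 15.9 against 24.8, 13.7 and 16.8 CPM, with overlapping sets. In NCM0_1 the well of 84851 UMIs named above lay outside both classes, since its cardiac share was 0.191%.

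Genes of the ATF4 pathway, which answers amino acid shortage and misfolded protein, had the second lowest median, -0.49, and no call by edgeR, with 4 of 20 members at an unadjusted p under 0.05, all lower, beside 4.75% of all genes. The same median was found in wells of 1% or more. Of the 20 members, 17 had negative values and 7 did not overlap, all lower in NFNCM, beside 12.7% of all genes. Mthfd2, a mitochondrial folate enzyme, stood at 95.4 and 93.7 CPM against 50.8, 45.6 and 59.6 CPM (log2 fold change -0.86, adjusted p = 0.325). Atf4 itself stood at 108 and 180 against 141, 109 and 97.1 CPM, and Slc3a2, the heavy chain of amino acid transporters, at 141 and 167 against 343, 143 and 159 CPM, both with overlapping sets.

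**Figure D5:**
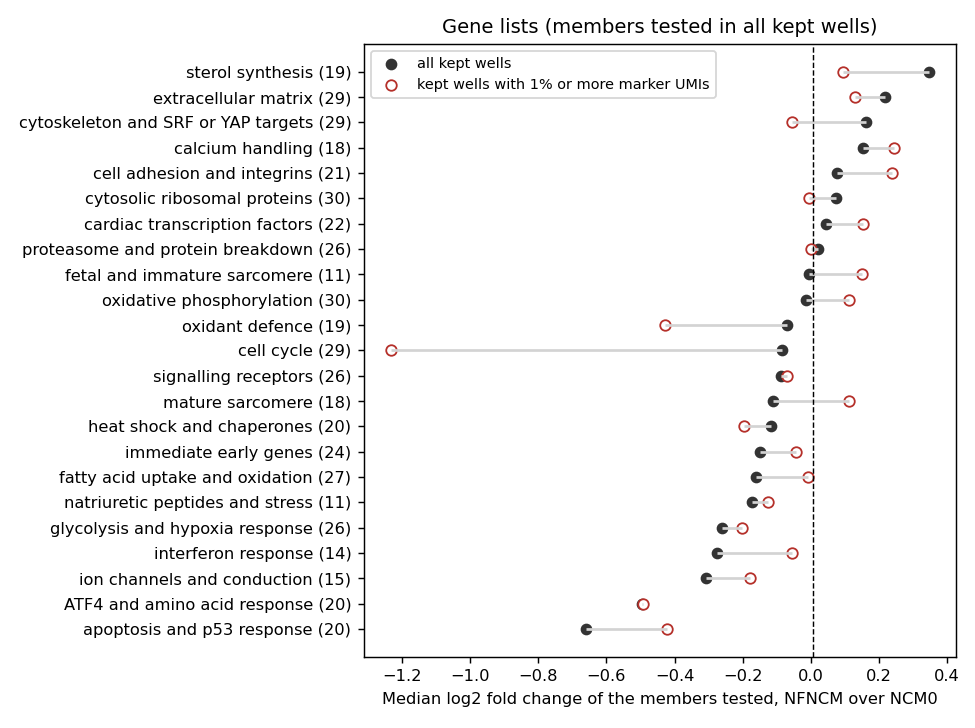
Median log2 fold change (NFNCM over NCM0) of the tested members of 23 gene lists, with filled points for all kept wells, open points for kept wells with 1% or more cardiac marker UMIs, and the number of members tested in brackets. The p53 list is lowest in all kept wells at -0.66, the cell cycle list moves from -0.08 to -1.23 between both selections, and the dashed line marks the median of all genes.

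The cell cycle list, of genes that drive DNA replication and mitosis, had the median that moved most between both selections of wells. In all kept wells 0 of 29 members were called by edgeR, 3 had an unadjusted p under 0.05 beside 9.05% of all genes, and the median was -0.08. In wells of 1% or more, 0 of 25 were called, 11 had an unadjusted p under 0.05, all lower in NFNCM, beside 4.46% of all genes, and the median was -1.23 beside 0.00 over all genes. Mki67, a marker of cycling cells, stood at 72.9 and 98.4 against 87.2, 50.9 and 52.6 CPM in all kept wells. Its log2 fold change was -0.44 there and -1.67 in wells of 1% or more. Birc5, encoding the mitotic regulator survivin, moved from 0.74 to -0.22 and Prc1, an organiser of the mitotic spindle midzone, from 0.50 to -1.10. Several of these transcripts were abundant in the wells under 1%, where Birc5 stood at 278 unscaled CPM against 33.3 in the wells of 1% or more and Prc1 at 275 against 30.2.

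Contractile and calcium-handling genes gave no call. Of 18 calcium-handling genes tested, 0 were called by edgeR and 3 had an unadjusted p under 0.05, beside 9.05% of all genes, with a median log2 fold change of 0.15. The 18 mature sarcomere genes, of which Myh6 and Tnni3 also served to select the wells, had a median log2 fold change of -0.11 and the 11 tested fetal or immature sarcomere genes of -0.01, moving to 0.11 and 0.15 in wells of 1% or more. No member of either list was called by edgeR. Unadjusted p was under 0.05 for 1 mature gene that was higher in NFNCM and 4 that were lower, and for 4 immature genes that were higher and 1 that was lower, beside 4.3% of all genes higher and 4.75% lower. The sets did not overlap for 2 mature genes that were higher and 6 that were lower, and for 3 immature genes that were higher and 1 that was lower, beside 12.2% and 12.7% of all genes. Myl2, the ventricular light chain, stood at 7114 and 6203 CPM against 6355, 7845 and 6304 CPM, with overlapping sets (log2 fold change 0.04, adjusted p = 0.979). Tnni1, the slow skeletal troponin I of the fetal heart, stood at 570 and 454 against 617, 1007 and 803 CPM, which did not overlap (log2 fold change 0.66, adjusted p = 0.440). Acta2, the smooth muscle actin expressed by immature CMs and myofibroblasts, stood at 791 and 880 against 1249, 1295 and 1319 CPM (log2 fold change 0.62, adjusted p = 0.314). Myl7, the atrial light chain, stood at 1226 and 1148 against 1810, 2825 and 1222 CPM, with overlapping sets. Atp2a2, the calcium pump of the sarcoplasmic reticulum, stood at 2752 and 3120 against 2598, 3352 and 2497 CPM, also overlapping. Sln, an inhibitor of that pump in atrial CMs that was named after its values were seen, stood at 102 and 300 against 458, 1239 and 569 CPM, with 43.7 to 57.7% of each set's UMIs in 1 well (log2 fold change 1.90, adjusted p = 0.325).

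The metabolic, heat shock and oxidant defence lists gave no call. Oxidative phosphorylation had a median of -0.01 over 30 members, none called by edgeR and 0 at an unadjusted p under 0.05. Fatty acid uptake and oxidation had -0.16 over 27 members and glycolysis and the hypoxia response -0.26 over 26 members, with 2 and 6 members at an unadjusted p under 0.05 beside 9.05% of all genes. The sets did not overlap for 8 members of each that were lower in NFNCM, beside 12.7% of all genes, and for 3 and 2 that were higher, beside 12.2%. Of the glycolysis and hypoxia genes 20 of 26 had negative values. Ldha, lactate dehydrogenase A, lay on the other side of 0 from the median of its list and stood at 776 and 778 against 946, 1198 and 1140 CPM and did not overlap (log2 fold change 0.49, adjusted p = 0.441). Heat shock genes and chaperones had a median of -0.12. Hspa5, the main chaperone of the endoplasmic reticulum, lay on the other side of 0 from that median. It stood at 647 and 657 against 985, 919 and 946 CPM (log2 fold change 0.54, adjusted p = 0.362). The oxidant defence list had a median of -0.07, which was -0.43 in wells of 1% or more, and sterol synthesis had the highest median of the 23 gene lists other than cell type markers, 0.35, which was 0.09 in those wells. None of these 3 lists had a member called by edgeR. Unadjusted p was under 0.05 for 5 of 20 heat shock, 5 of 19 oxidant defence and 2 of 19 sterol synthesis members, beside 9.05% of all genes. In wells of 1% or more, 7 heat shock and 7 oxidant defence members had an unadjusted p under 0.05 and were lower in NFNCM, beside 4.46% of all genes. In each of these 2 lists 1 member was higher, beside 4.11%, and sterol synthesis had 0 in either direction.

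Genes of inflammatory signalling were looked at beside the chemokines after their values were seen. Nfkbia, which encodes IκBα and is itself induced by NF-κB, stood at 219 and 145 CPM against 439, 308 and 373 CPM, which did not overlap (log2 fold change 1.04, adjusted p = 0.233 by edgeR), and it had 0.99 in wells of 1% or more. Nfkbiz, an inducible nuclear relative of it, stood at 6.30 and 8.46 against 54.4, 46.5 and 31.1 CPM (log2 fold change 2.54, adjusted p = 0.063), with 1.28 in wells of 1% or more. Tnfaip3, a feedback inhibitor of NF-κB, stood at 1.8 and 4.02 against 15.2, 16.5 and 13.2 CPM (log2 fold change 2.28, adjusted p = 0.325). None of the 3 was called. Il6, the interleukin 6 gene, stood at 0 and 14.8 against 3.03, 1.10 and 2.90 CPM. The 14 interferon response genes tested had a median of -0.28 and no call by edgeR, with 0 at an unadjusted p under 0.05.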

How the data were processed

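UMI counts, for every gene in every well of the chip, were deposited by the authors together with a report that names the set of each well. Per the study's methods and the submitters' processing notes, barcodes and UMIs were read from read 1, and reads were aligned to mm10 with STAR 2.5.2b and counted by featureCounts (Subread 1.4.6-p1). UMI counts were summed over the kept wells of each set after 33 mitochondrial genes were removed. Of 28085 gene columns, 27552 had a name; the other 533 held 0.423% of UMIs. No doublet caller was run, since wells were imaged, and 269 barcodes occur on both chips of the series, which were not joined. Sums differed between sets beyond sampling noise, so none was a duplicate.

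Genes detected in 10 or more kept wells and passing filterByExpr were tested with edgeR 4.0.16 in R 4.3.3 (quasi-likelihood test, TMM scaling, all 5 sets, no covariate). Alternatives used DESeq2 1.42.0 and limma 3.58.1, other gene and well filters and each set left out. Tested on simulated data for this comparison (11912 genes), edgeR recovered 75 of 100 genes changed by a log2 of 1.5 and 99 of 100 changed by 3, with 13 false calls. The changed genes were drawn from those with a mean of 20 CPM or more. Recovery at lower levels, where Pmaip1, Dll4 and Gm10801 lie, was not tested. Counts were drawn per set and not per well, so the simulation does not cover calls that rest on 1 well. Well shares were compared by exact permutation tests over sets, and binomial intervals are exact Clopper-Pearson; they cover counting error only.

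Genes were named by rule: up to 12 called rises and 12 called falls whose sets do not overlap and whose mean is at least 50 CPM, the 5 + 6 genes of the well rule, and of each list up to 6 called members and the 3 uncalled members with the highest mean. The called genes Hsd11b1, Pmaip1, Dll4, Gm10801 and Gm26884 fall under that mean or that overlap limit and, like other genes said to be so, were named after their values were seen. The wells and gene lists were chosen with earlier results of these data known. Single-cell sets of adult fibroblast co-cultures entered 1 alternative only.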

Additional observations from a re-analysis of the deposited data

Results flagged for a closer look

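Synthetic spike-in transcripts were counted in every kept well, in 85 columns of the count table that no comparison used and that the methods do not mention. The median kept well held 260 spike-in UMIs in the lowest of the 5 sets (NCM0_2) and 419 in the highest (NCM0_1), with the 3 NFNCM sets at 262, 418 and 403. The 5 negative control wells held 16 spike-in UMIs in all. Per spike-in UMI, the sums of the kept wells held 30.8 and 48.7 other UMIs in NCM0_1 and NCM0_2 and 52.0, 43.3 and 47.0 in the NFNCM sets, which overlap (exact two-sided permutation p = 0.6 over 2 against 3 sets, smallest possible p = 0.2).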

How the results depend on the processing

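The number of called genes moved with the processing, while the median of all genes stayed between -0.01 and 0.11. The main 10 calls became 109 with DESeq2 (63 higher, 46 lower), 3 with limma-voom, 221 without a gene filter (127 higher, 94 lower), 5 with the filter of 10 wells alone, 20 with the sets of adult fibroblast co-cultures in the fit, 5 with the fuller well filter, 3 in wells of 5000 to 40000 UMIs, 2 with equally weighted wells in limma, and 2 and 1 in wells with 1% and 3% or more cardiac marker UMIs. Where cardiac UMIs had to exceed fibroblast UMIs by 20 times, edgeR called 0 genes (941 at an unadjusted p under 0.05), and Gm10800 reversed to a log2 fold change of 1.55. Hsd11b1 reversed to -0.11 in wells of 3% or more, and the 1 gene called there, Lox (a matrix crosslinking enzyme), was lower in NFNCM. Leaving out each set gave 3 to 11 calls. Ccl2 was called in 17 of 19 alternatives, Cxcl1 in 16 and Ccl7 in 15. With the replicate block, 8 genes were called (6 higher, 2 lower), of which 4 were among the main 10 (Ccl2, Cxcl1, Ccl7 and Gm26884), while the other main calls had adjusted p of 0.062 to 0.097. Deviations of same-numbered sets from their group means correlated at r = 0.0138 for number 1 and -0.0644 for number 2, across genes. With 2 NCM0 sets these deviations mirror each other, so the check cannot decide whether same-numbered sets are paired. The difference in kept wells was -13.4 points with 1000 genes and -7.33 with the 20-times rule, each at an exact permutation p = 0.2. With 5 sums, smaller changes and genes seen in few wells are beyond the precision of these data.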

Other observations

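Markers of other cell types were detected in the kept wells. The 11 macrophage markers summed to 728 and 192 CPM (unscaled) in NCM0_1 and NCM0_2 and to 1294, 887 and 329 in the NFNCM sets, with overlap, and 10 of the 11 had positive log2 fold changes with a median of 1.11 and no call by edgeR, 1 at an unadjusted p under 0.05. In the 4 of them tested over wells of 1% or more the median was -0.84, and their part in the results was not tested. The 10 smooth muscle and pericyte markers, which include Acta2 and Tagln of immature CMs, summed to 1300 and 1741 against 1735, 1632 and 1899, also with overlap. The 12 endothelial markers summed to 51.7 and 73.7 CPM (unscaled) in NCM0_1 and NCM0_2 and to 106, 32.7 and 216 in the NFNCM sets, with overlap, and red blood cell markers to 1.1 or less in every set. Dct, a melanocyte enzyme gene named after its values were seen, had 1 and 3 UMIs in the NCM0 sets and 2053, 920 and 115 UMIs in the NFNCM sets, of which single wells held 99.9% in NFNCM1 and 93.5% in NFNCM2. Ctla2a, a protease inhibitor gene, stood at 55.8 and 113 CPM against 569, 397 and 1358 CPM, and wells under 1% cardiac marker UMIs held 92.7%, 90.9% and 93.1% of the NFNCM UMIs. In wells of 1% or more its log2 fold change was -0.26, against 3.18 in all kept wells.

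Several abundant transcripts were lower in every NFNCM set without being called, and were named after their values were seen. The nuclear RNA Neat1 stood at 215 and 404 CPM against 93.8, 121 and 103 CPM (log2 fold change -1.55, adjusted p = 0.071 by edgeR), and the host gene of small nucleolar RNAs Snhg15 at 234 and 212 against 103, 86.6 and 104 CPM (log2 fold change -1.18, adjusted p = 0.063). Gdf15, a stress-induced cytokine gene, stood at 266 and 86.1 against 29.5, 17.0 and 36.0 CPM, and 75.5% of its UMIs in NCM0_1 came from 1 well. Csrp3, the muscle LIM protein of the Z-disc, stood at 607 and 1154 against 439, 386 and 325 CPM, and 1 well held 71.8% of its UMIs in NCM0_2. Xist, the RNA that coats the inactive X chromosome, stood at 88.6 and 50.3 against 32.3, 23.9 and 20.1 CPM (log2 fold change -1.44, adjusted p = 0.242), while the Y-linked gene Eif2s3y stood at 43.6 and 31.5 against 40.004, 33.3 and 26.7 CPM. Neither the labels nor the methods give the sex of the pups.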
